A study of Rattus norvegicus with 12 samples.

Results

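Non-responder rats stimulated by electroacupuncture at 2 Hz were compared with non-responder rats stimulated at 100 Hz, on the RNA of the arcuate nucleus. They were taken from the sample titles: 6 of the 12 rats of the series, 3 in each group. Electroacupuncture passes current through needles at acupuncture points, and a non-responder is a rat that the study classed as showing little pain relief under it. All rats were Sprague-Dawley, were stimulated for 30 min, went through a pain test and then spent 1 h in the home cage before the tissue was taken. The 2 groups are named 2Hz_NR and 100Hz_NR, and the high responders of the same study 2Hz_HR and 100Hz_HR, also 3 rats each. A 2-colour cDNA array per rat carried that rat's RNA in Cy3 beside a Cy5-labelled mixture from 3 rats that had stayed in their cages without stimulation. The labels call that mixture arcuate in one field and name DH or dorsal horn in others. As the same mixture lies on every array, it cancels between the groups. The class of a rat rests on the titles and the responder field, as the treatment text words all 4 groups alike, as sensitive. Whole tissue was used, so fewer cells of a type and less RNA per cell cannot be told apart.

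The arcuate nucleus lies at the base of the hypothalamus and holds the brain's main group of neurons that make beta-endorphin, an opioid peptide cut from the precursor pro-opiomelanocortin. Low-frequency electroacupuncture is known to act largely through beta-endorphin and enkephalins at mu and delta opioid receptors, and high-frequency stimulation largely through dynorphin, made in the spinal cord, at kappa receptors. The comparison asks whether the 2 frequencies leave different transcript profiles in rats classed as non-responders. The deposited files identify a feature only by its place on the slide. None of the 11257 feature IDs of the authors' value table carries a gene symbol or accession, so the opioid genes and the markers of the arcuate nucleus could not be looked up, the tissue label could not be checked, and 4 features are described by their position.

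Values are log2 ratios of the rat over the control pool, the sign of the authors' table turned round, since that table holds the pool over the rat. The 9567 features with a value on all 6 non-responder arrays were tested. The median Cy3 intensity was 477, 496 and 469 scanner units on the 2Hz_NR arrays, and 481 and 425 on replicates 2 and 3 of 100Hz_NR. The Cy3 file of 100Hz_NR replicate 1 is a byte-for-byte copy of that of 2Hz_HR replicate 1, so that rat's values come from the value table, and of its spot files only the Cy5 file was used. The median Cy5 intensity was 507, 493 and 507 on the 2Hz_NR arrays, and 444, 503 and 462 on the 100Hz_NR arrays. The arrays were quantified in batches that follow the groups: the headers give one day and year for all 2Hz_NR arrays, and another day and year for all 100Hz_NR arrays. Date of quantification and frequency cannot be told apart in these 6 arrays. No other array of the series has both the day and the year of 100Hz_NR. Replicates 2 and 3 of 2Hz_HR have the day of 2Hz_NR but the year of 100Hz_NR. In the alternative fits, day and year each entered alone as a block, so neither adjusts for the full date of 100Hz_NR.

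No feature passed the test between the frequencies. With limma and Benjamini-Hochberg adjustment, 0 of 9567 features passed an adjusted p of 0.05 (0%), and the lowest adjusted p was 0.231. At an unadjusted p under 0.05 there were 354 features (3.70%), 183 higher and 171 lower in 2Hz_NR (51.7% higher), where evenly spread p-values would give 478. The split moved with the scaling, to 219 higher and 138 lower with median centring and 172 higher and 211 lower with quantile normalization, and was 100 higher and 136 lower among features above background in both channels. The median log2 difference, 2Hz_NR minus 100Hz_NR, was -0.01 over all features, and its median size was 0.13. A mean difference of over 1.5-fold was seen at 796 features. The 3 rats of 2Hz_NR lay all above those of 100Hz_NR at 344 features and all below at 470, together 814 (8.51%). Order alone would separate 3 arrays from 3 at a share of 0.1 of features, more than was seen. Of these 814, 197 also differed by over 1.5-fold in their means.

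At the median feature the 95% interval reached 0.39 log2 units, or 1.31-fold, to either side of the difference. At 5330 features, 55.7% of those tested, the whole interval lay within 1.5-fold of no difference, and at 7617 features, 79.6%, within 2-fold. For the remaining features a difference of 2-fold was not bounded by these arrays. These are intervals of single features, without adjustment. The plot of difference against intensity shows where the wide values lie: the dimmest eighth of features had a median half-width of 0.90 on the log2 scale and 9.87% of its features at an unadjusted p under 0.05. The brightest eighth had a median half-width of 0.32 and 1.42% at that p.

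**Figure D1:**
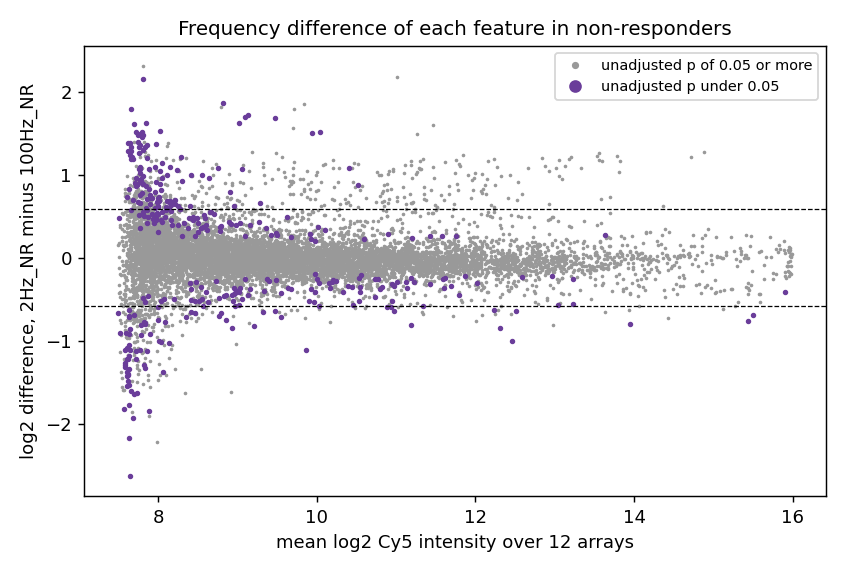
Log2 difference between 2Hz_NR and 100Hz_NR for each of the 9567 features (vertical axis) against the mean log2 Cy5 intensity over 12 arrays (horizontal axis), with dashed lines at 1.5-fold and purple points for the 354 features at an unadjusted p under 0.05. Purple points gather among dim features, while a separate cloud of mostly grey points lies above the upper line at middle and high intensity.

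That cloud was made up of features that moved together from rat to rat. Among features with a value on all 12 arrays and a mean log2 Cy5 intensity over 9, 276 of 5606 were chosen. The choice used the ratios of the high responders alone: a log2 ratio on 100Hz_HR replicate 2 at least 1 above the median of the other 5 high-responder arrays. This rule was set after the values were seen, so the set is described without a test. The values just inside and just outside the limit were 1.0008 and 0.9982. Within 0.1 of it lay 27 features inside and 23 outside.

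The ratios of the non-responder arrays were not in the rule, but they had been seen when it was set. Their values and intensities also entered the filter, so they are not an independent look at the set. On these arrays the 276 features had a median log2 ratio of 1.28, 0.11 and -0.35 in 2Hz_NR replicates 1, 2 and 3. In 100Hz_NR replicates 1, 2 and 3 it was -0.48, -0.02 and -0.75. One 2 Hz rat was thus 2.43-fold above the pool, while one 100 Hz rat was below it, the pool being 1.68-fold higher than that rat. The groups overlapped, as 2Hz_NR replicate 3 lay below 100Hz_NR replicate 2. The other 5330 features above the intensity minimum, not matched to the set in intensity, had medians between -0.08 and 0.01 on the same 6 arrays.

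In the raw signals the rats' dye varied more than the pool's. The median Cy3 intensity of the 276 features was 3104, 1683 and 1208 scanner units in 2Hz_NR, against 1510 and 716 in 100Hz_NR replicates 2 and 3. Their median Cy5 intensity, that of the pool, was 1940, 1853 and 1876 on the 2Hz_NR arrays, and 1538, 2075 and 1666 on the 100Hz_NR arrays. The median Pearson correlation between pairs of these features was 0.97 over the 6 non-responder arrays, on which all points share the array. They were spread over the slide, in 43 of the 48 printed blocks, yet 189 of 276, 68.5%, lay in printed rows 2 to 4 of their block, where 23.3% of all tested features lie. These rows were picked after the set was seen. The share of all tested features includes those below the intensity minimum.

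In this set 2Hz_NR was higher at the median, with a wide spread between rats. The median log2 difference, 2Hz_NR minus 100Hz_NR, was 0.77, or 1.71-fold, and 274 of 276 features were above 0, against a median of -0.03 for the other features above the intensity minimum. As the features moved together, the 274 are not separate observations. In the high responders, whose ratios chose the set, its medians were -0.08, -0.43 and -0.56 at 2 Hz. At 100 Hz they were -0.70, 1.31 and -0.33. The groups did not overlap at 5 of the 276 (1.81%, against 8.51% of all features tested). The median SD between rats was 0.83 in 2Hz_NR and 0.42 in 100Hz_NR, against 0.12 and 0.15 for the other features. Without 2Hz_NR replicate 1 the median difference was 0.32, without 100Hz_NR replicate 3 it was 0.61, and without both 0.14. Of the 213 features above the intensity minimum that were over 1.5-fold higher in 2Hz_NR, 199 belong to the set.

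**Figure D2:**
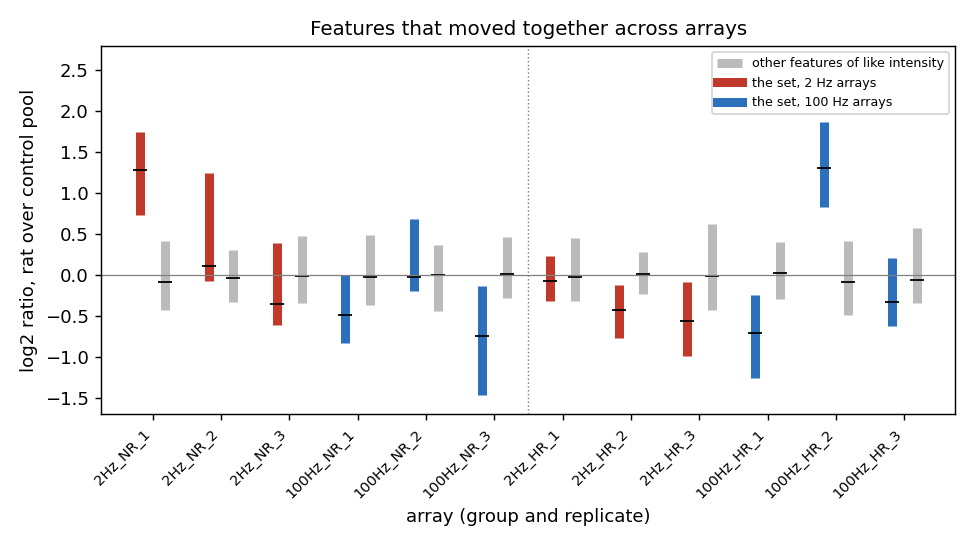
Log2 ratio over the control pool (vertical axis) on each of the 12 arrays (horizontal axis) for the 276 features that moved together (coloured bars, 5th to 95th percentile, with a tick at the median) and for 5330 other features (grey bars). The other features lay above the same intensity minimum and were not matched to the set. In non-responders the medians run between 1.28 and -0.75 and the frequencies overlap, while the grey medians stay near 0. The set was chosen by the ratios on the 6 arrays right of the dotted line, after the values of all 12 had been seen.

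Of features above background in both channels on each of the 5 non-responder arrays with usable files, the 2 with the lowest p among those higher in 2Hz_NR and the 2 among those lower, with no overlap between the groups, are described. None passed the adjusted test, so these are values of the lowest p-values and not called differences.

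Feature Sr01Sc02R10C08, in the 1st printed grid row, had log2 ratios of 1.13, 1.02 and 0.81 in 2Hz_NR, against -0.42, 0.39 and -0.24 in 100Hz_NR. All 2 Hz rats were above the pool and 1 of the 3 at 100 Hz was. The means were 0.99 ± 0.16 in 2Hz_NR and -0.09 ± 0.43 in 100Hz_NR (SD, n = 3 each), a log2 difference of 1.08 (95% interval 0.52 to 1.63, 2.11-fold) with an adjusted p of 0.882 by limma. In the high responders the ratios were 0.43, 0.45 and 0.22 at 2 Hz, against 0.12, 0.82 and -0.04 at 100 Hz, where the frequencies overlapped.

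Feature Sr04Sc01R08C03 had log2 ratios of 0.77, 1.66 and 0.70 in 2Hz_NR, against 0.02, 0.32 and -0.44 in 100Hz_NR. The log2 difference was 1.08 (95% interval 0.48 to 1.68, 2.11-fold), with an adjusted p of 0.882 by limma. High responders had -0.23, 0.01 and -0.08 at 2 Hz, against -0.07, 0.42 and 0.20 at 100 Hz, so their difference ran the other way, at -0.28 (SE 0.27). The test of the difference between these 2 frequency effects gave a log2 value of 1.36 (SE 0.38) and an adjusted p of 0.804 by limma. The feature was chosen by its non-responder difference, which is part of that value, so the choice favours a large one. The value was 1.01 for Sr01Sc02R10C08, -0.41 for Sr02Sc01R13C09 and -0.37 for Sr07Sc04R14C09, at the same adjusted p.

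Feature Sr02Sc01R13C09 was lower in 2Hz_NR, with log2 ratios of -0.14, -0.22 and 0.08, against 0.90, 0.42 and 0.52 in 100Hz_NR. All 100 Hz rats were above the pool. The log2 difference was -0.71 (95% interval -1.09 to -0.33), 1.63-fold higher in 100Hz_NR, with an adjusted p of 0.882 by limma. In high responders the ratios were -0.20, 0.04 and 0.20 at 2 Hz, against 0.28, 0.08 and 0.56 at 100 Hz, a difference of -0.29 (SE 0.17) with overlap.

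Feature Sr07Sc04R14C09 had log2 ratios of -0.30, -0.15 and -0.29 in 2Hz_NR, against 0.11, 0.13 and 0.58 in 100Hz_NR. The rats lay below the pool at 2 Hz and above it at 100 Hz. The log2 difference was -0.52 (95% interval -0.81 to -0.24), 1.44-fold higher in 100Hz_NR, with an adjusted p of 0.882 by limma. High responders had -0.22, -0.28 and -0.21 at 2 Hz, against -0.02, -0.18 and -0.07 at 100 Hz, also without overlap and in the same direction. Their difference was -0.15 (SE 0.13), with an adjusted p of 0.901 by limma. Order alone would separate 3 arrays from 3 at a share of 0.1 of features.

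**Figure D3:**
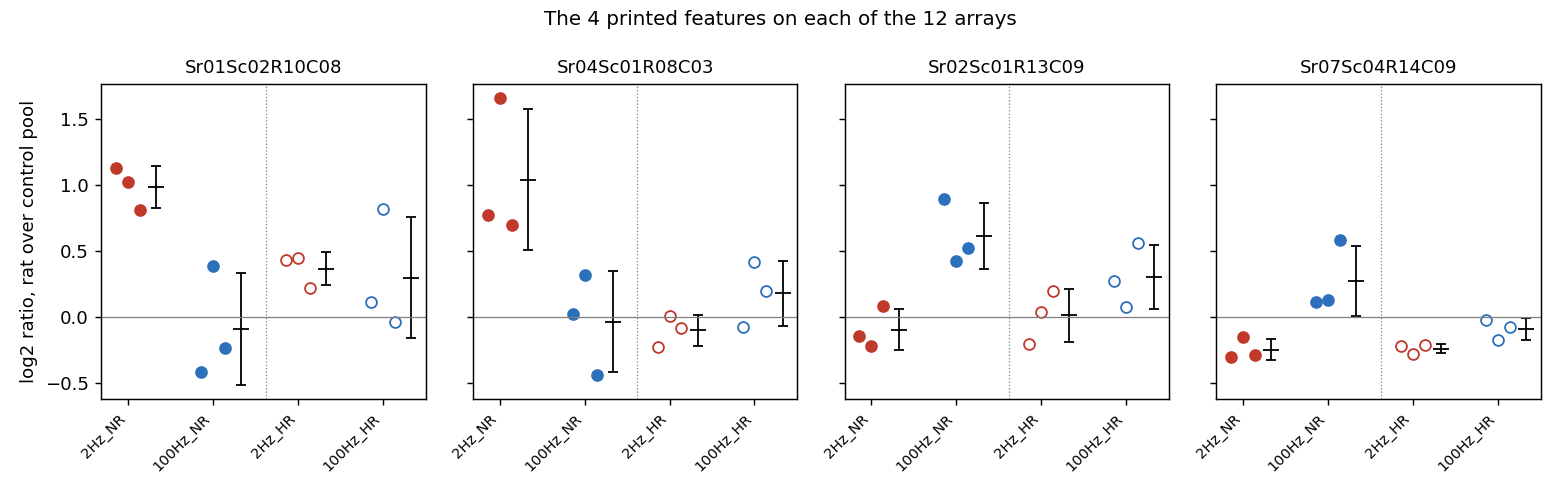
Log2 ratio over the control pool of the 4 features (vertical axis) in each group (horizontal axis). Points are single rats, red for 2 Hz and blue for 100 Hz, filled for non-responders and open for high responders, and bars are the mean and SD of 3 rats. The filled red and blue points do not overlap in any panel, by the rule that chose the features.

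The feature with the lowest p of all was near background. Its log2 ratios were 0.92, 1.20 and 1.07 in 2Hz_NR, against -0.46, -0.69 and -0.52 in 100Hz_NR, and its adjusted p by limma was 0.231. Its Cy5 signal lay above background on 1 of the 5 non-responder arrays with usable files and its Cy3 signal on 4, so the size of the difference was not measured.

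Distances between rats of one frequency overlapped those between the frequencies. The median absolute difference of the log2 ratio between 2 rats was 0.16 to 0.21 within 2Hz_NR, 0.21 to 0.29 within 100Hz_NR and 0.16 to 0.29 between the frequencies. Replicate 2 of 100Hz_NR stood 0.16, 0.17 and 0.16 from the 3 rats of 2Hz_NR, and 0.29 and 0.21 from replicates 1 and 3 of its own group. Replicate 1 of 100Hz_NR stood between 0.23 and 0.29 from every other non-responder.

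Replicate 1 of 100Hz_NR also had the widest ratios. The interquartile range of the log2 ratios was 0.34, 0.31 and 0.38 in 2Hz_NR, against 0.48, 0.32 and 0.34 in 100Hz_NR. The means of 0.34 ± 0.03 and 0.38 ± 0.09 (SD, n = 3 each) differed by -0.04, with p = 0.7 in an exact two-sided permutation test whose smallest possible p is 0.1. Without that array the difference was 0.01, with 2Hz_NR the higher. That array was the lowest of the 6 at 32.0% of features and the highest at 19.7%.

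Its ratios were low among dim features. In the second dimmest eighth of features, replicate 1 of 100Hz_NR had a median log2 ratio of -0.36, while the other non-responder arrays had -0.06, -0.08 and -0.05 in 2Hz_NR and -0.05 and -0.10 in 100Hz_NR. In the same eighth 63 features had an unadjusted p under 0.05, 53 of them higher in 2Hz_NR. In the brightest eighth it was 17, of which 1 was higher in 2Hz_NR. The medians there were -0.01, -0.03 and -0.01 in 100Hz_NR replicates 1, 2 and 3, and the lowest was that of 2Hz_NR replicate 1, at -0.14.

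**Figure D4:**
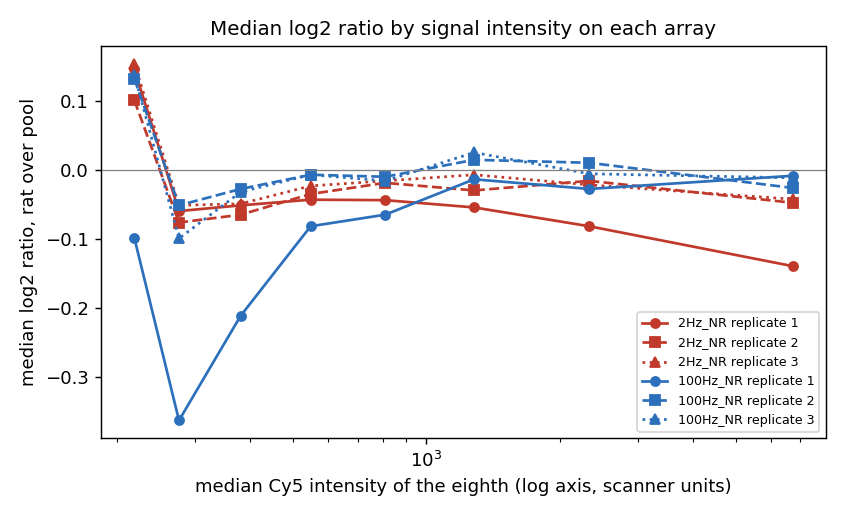
Median log2 ratio over the control pool (vertical axis) in 8 classes of features of rising Cy5 intensity (horizontal axis, log scale) on each non-responder array, red for 2Hz_NR and blue for 100Hz_NR. The line of 100Hz_NR replicate 1 drops to -0.36 among dim features, and that of 2Hz_NR replicate 1 falls to -0.14 among the brightest.

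Ratios on the same array also varied with the place on the slide. Over the 12 printed grid rows, the median log2 difference between the frequencies ran between -0.08 in row 3 and 0.06 in row 12. The median ratio on 100Hz_NR replicate 1 was 0.16 in row 3 and -0.22 in row 8. In grid rows 1 to 6, 62 features were higher and 104 lower in 2Hz_NR at an unadjusted p under 0.05. In rows 7 to 12 it was 121 higher and 67 lower. Without 100Hz_NR replicate 1 the counts were 39 higher and 68 lower in rows 1 to 6, and 48 higher and 66 lower in rows 7 to 12. With each array centred within each of the 48 printed blocks, an analysis added after the values were seen, 389 features had an unadjusted p under 0.05, 248 higher and 141 lower (63.8% higher), and limma with Benjamini-Hochberg adjustment again called 0.

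Which array was left out changed the number of low p-values. The 354 features became 840 without 100Hz_NR replicate 2 and 221 without 100Hz_NR replicate 1. Of the 354, 275 were shared in the first case and 118 in the second. The other omissions gave between 245 and 417. Leaving out 2Hz_NR replicate 3 called 1 feature by limma with Benjamini-Hochberg adjustment (adjusted p = 0.0486), a feature that was not above background in both channels on all 5 arrays with usable files. The other 5 omissions called 0.

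**Figure D5:**
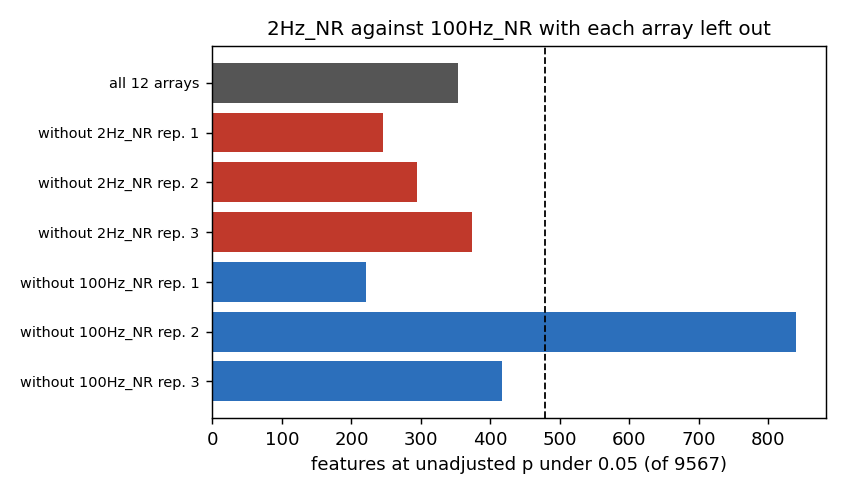
Number of features at an unadjusted p under 0.05 between 2Hz_NR and 100Hz_NR (horizontal axis) with all 12 arrays (grey bar) and with each non-responder array left out in turn (red for 2Hz_NR, blue for 100Hz_NR). The dashed line marks the 478 that evenly spread p-values would give, passed among these bars only without 100Hz_NR replicate 2, at 840.

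Each group was also set against the control pool, which is 1 control sample in 1 dye orientation, so the spread between control rats and the dye bias of single features stay in these counts. Limma with Benjamini-Hochberg adjustment called 135 features in 2Hz_NR (1.41%), 83 higher and 52 lower than the pool, of which 68 and 22 by over 1.5-fold. The split turned over to 84 higher and 158 lower with quantile normalization between arrays, was 106 higher and 39 lower with median centring, and was 115 higher and 34 lower when centred within printed blocks. Without 2Hz_NR replicate 1, 2 or 3 the count was 11, 29 or 16. In 100Hz_NR it called 107 (1.12%), 52 higher and 55 lower, of which 38 and 34 by over 1.5-fold. Without 100Hz_NR replicate 1, 2 or 3 that count was 6, 20 or 31. A call in one group and not in the other does not show a difference between them. Of the 4 features above, Sr01Sc02R10C08 and Sr04Sc01R08C03 were called higher than the pool in 2Hz_NR (adjusted p = 0.0312 and 0.0339 by limma), and Sr02Sc01R13C09 in 100Hz_NR (adjusted p = 0.0451 by limma). The 4 were chosen for their low p-values on these same ratios, so such calls are no separate evidence for them.

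Features that stood apart from the pool in the 6 high responders showed nearly equal medians at both frequencies in the non-responders. Over both frequencies of high responders, 1080 of 9562 features (11.3%) were called against the pool. The 483 called higher had a median log2 ratio of 0.39 in 2Hz_NR and 0.35 in 100Hz_NR, with a median difference of 0.02. The 597 called lower had -0.27 in 2Hz_NR and -0.25 in 100Hz_NR, with a median difference of -0.02. Limma with Benjamini-Hochberg adjustment called 0 of either list between the frequencies. At an unadjusted p under 0.05 there were 33 of the 483 and 32 of the 597, 6.83% and 5.36%, against 3.70% of all features. The pool is common to these lists and to the ratios of the non-responders. The lists and these p-values also come from the same fit, in which the groups share the spread of each feature. A feature with a low spread passes both more easily, so these shares cannot be compared evenly with that of all features.

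The frequency difference in non-responders was tested against that in high responders. By limma, 0 of 9562 features passed a Benjamini-Hochberg adjusted p of 0.05, the lowest being 0.804, and 336 were under an unadjusted 0.05. At the median feature its 95% interval reached 0.55 log2 units, that is 1.47-fold, to either side, and it lay wholly within 1.5-fold of no difference at 30.9% of features. Between 2Hz_HR and 100Hz_HR themselves limma likewise passed 0 of 9562, the lowest adjusted p being 0.901, and 393 were under an unadjusted 0.05. A frequency effect particular to non-responders was not detected at this number of arrays.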

How the data were processed

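Per the labels and file headers, arrays were laser-scanned and quantified with ImaGene (version 4.2 in the labels, 5.1 in the headers). The deposited spot files hold signal and background intensity per channel, not normalized, for 12288 spots. The authors' value table gives log2 values for 11257 features, as Cy5 over Cy3, with a normalization not given in the sources used here. Set against the Cy3 over Cy5 ratio in the spot files of the same array, across spots above 2000 in both channels, the reversed columns gave r of 0.95 to 0.99 on 11 arrays. The reversed columns had medians between -0.10 and 0.01.

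All 12 columns were fitted with 1 mean per group (lmFit and eBayes, limma 3.58.1, R 4.3.3, tested on simulated data), over the 9567 features with a value on all 6 non-responder arrays. Of the table's features, 1690 were left out. Tests are two-sided, and a call needs an adjusted p (Benjamini-Hochberg) below 0.05. Above background means a spot signal over the mean local background plus 2 of its SDs. Arrays hold no read depth, and their number limits the precision. Each rat had 1 array, so p-values measure the spread between rats together with that between arrays. In the main fit the 4 groups share this spread.

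Printed features were those with the lowest p among features without overlap and above background in both channels, 2 in each direction. The planned gene lists and cell markers were not run, since no table pairs features with genes. The comparison, lists and alternatives were chosen with earlier results of these data known. Alternatives changed the arrays, the source of values, centring, normalization, filter, variance model, weights, blocks and fold minimum. Spot files were corrected by normexp with an offset of 50 and global loess.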

Additional observations from a re-analysis of the deposited data

How the results depend on the processing

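The count of 0 features between 2Hz_NR and 100Hz_NR was the same under 15 of 18 alternatives. It was 1 with the header day alone as a block (adjusted p = 0.0294 by limma), 19 with the year alone (2 higher and 17 lower in 2Hz_NR, lowest adjusted p = 3.51e-06 by limma), and 0 to 1 with single arrays left out. The call under the day block and 13 of the 19 under the year block were above background in both channels. No non-responder group spans 2 days or years, which leaves the day block to 100Hz_HR replicate 3 and the year block to 2Hz_HR replicate 1, each set against its own group. The 354 features at an unadjusted p under 0.05 became 172 from the spot files without 100Hz_NR replicate 1 (221 from the value table without it). They became 184 with the year block, 526 with array weights and 221 to 840 with single arrays left out. The interaction was 1 with the day block and 28 with the year block, and 0 otherwise.

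The analysis of spot files also left out 100Hz_NR replicate 1. The 135 features of 2Hz_NR against the pool were 289 from the spot files without that array and 185 from the value table without it, 242 with quantile normalization, 50 for features above background in both channels, 887 with array weights, 19 with the day block, 32 with the year block, 1 at the fold minimum, 30 with the 6 non-responder arrays alone, and 11 to 185 with single arrays left out. The 107 of 100Hz_NR were 6 without that array, from the spot files and from the value table alike, 62 for features above background, 41 with array weights, 57 with the day block, 24 with the year block, 1 at the fold minimum, 36 with the 6 arrays alone, 171 centred within printed blocks, and 6 to 58 with single arrays left out. The causes were not tested. Array weights ran from 0.51 for 100Hz_NR replicate 1 to 1.99 for 2Hz_HR replicate 2. The difference in interquartile range was 0.0113 from the spot files without 100Hz_NR replicate 1, and between -0.0679 and 0.0143 with single arrays left out, the 0.0143 from the value table without that same array.

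No clear pairing of the rats by replicate number was seen. Same-numbered non-responders correlated at -0.04, -0.01 and 0.18 in their deviations from the group means, and only replicate 3 correlated best with its own number. So few arrays cannot exclude a pairing. With the replicate block 0 features were called and 478 had an unadjusted p under 0.05. The block gave 95 features for 2Hz_NR and 131 for 100Hz_NR against the pool. The 4 printed features kept their direction under all 18 alternatives and passed in none. Dim signals limit the sizes of differences among the dimmest features.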
